A study of Homo sapiens with 34 samples.

Results

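The peroxiredoxins and the thioredoxin system were followed as 10 genes in 3 human B-ALL (B-cell precursor acute lymphoblastic leukemia) cell lines. They were the 6 peroxiredoxins *PRDX1* to *PRDX6*, the thioredoxins *TXN* and *TXN2* and the thioredoxin reductases *TXNRD1* and *TXNRD2*, taken by symbol from the 17587 genes listed in any of 6 tables. All 10 were listed in all 6, and no filter on low levels was applied. The lines were NALM-6, which carries ETV6-PDGFRB, RS4;11, which carries MLL-AF4, and BV-173, which carries BCR-ABL. In each line, cells transduced with a lentiviral shRNA against *CCND3* (cyclin D3), driven by a U6 promoter, and isolated by their red fluorescent marker on day 4 were set against cells given a scrambled shRNA in the same vector, and cells kept for 3 days in 1 µM palbociclib, an inhibitor of the kinases CDK4 and CDK6, were set against cells given its solvent DMSO. These 12 groups held 34 samples, 3 in each group except for 2 in *CCND3* shRNA of NALM-6 and 2 in DMSO of BV-173. A single *CCND3* shRNA was sequenced, so loss of cyclin D3 and any other effect of that hairpin cannot be told apart. The genes were selected on the *PRDX3* levels after knockdown in these same libraries, where it was low while its relatives were not, so all values below are a description and carry no test.

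Peroxiredoxins are abundant enzymes that reduce hydrogen peroxide with a reactive cysteine, which is oxidised in the reaction. Thioredoxin reduces that cysteine again, and thioredoxin reductase in turn restores thioredoxin with electrons from NADPH. *TXN* and *TXNRD1* serve the cytosol and nucleus, where *PRDX1* and *PRDX2* work, while *TXN2* and *TXNRD2* serve the mitochondria, where *PRDX3* and part of *PRDX5* work. *PRDX4* sits in the endoplasmic reticulum, and *PRDX6* differs from the others in having a single catalytic cysteine that is restored by glutathione.

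The genes lie apart from each other in the genome (GRCh38.p14, with the NCBI gene numbers of the tables). *PRDX3* (gene 10935) is at chr10:119167720-119178812, *PRDX2* (gene 7001) at chr19:12796823-12801800 and *TXNRD1* (gene 7296) at chr12:104215779-104350307. *PRDX1* (gene 5052) and *PRDX6* (gene 9588) are both on chromosome 1, *TXN2* (gene 25828) and *TXNRD2* (gene 10587) on chromosome 22, *TXN* (gene 7295) on chromosome 9, *PRDX5* (gene 25824) on chromosome 11 and *PRDX4* (gene 10549) on chromosome X. RefSeq start-site windows of 300 bases, reaching from 250 bases before to 50 bases after a start site, were at hand for 7 of the 10 genes. They are shown for the gene that was lowest after knockdown (*PRDX3*), the gene that was almost silent in 1 line (*PRDX2*) and the gene that was below its control in all 6 comparisons (*TXNRD1*). Each is written 5′ to 3′ on the strand of its gene. Capitals mark the E-box CACGTG in *PRDX3* (chr10:119178763-119179062, minus strand), every CG pair in *PRDX2* (chr19:12801751-12802050, minus strand) and the antioxidant response element core TGACNNNGC on either strand in *TXNRD1* (chr12:104215529-104215828, plus strand).
PRDX3: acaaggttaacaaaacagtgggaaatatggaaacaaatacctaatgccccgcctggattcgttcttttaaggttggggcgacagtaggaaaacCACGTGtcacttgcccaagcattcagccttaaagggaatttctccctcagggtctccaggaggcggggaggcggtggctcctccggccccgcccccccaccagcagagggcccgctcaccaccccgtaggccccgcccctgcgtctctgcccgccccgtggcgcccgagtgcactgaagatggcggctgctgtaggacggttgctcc
PRDX2: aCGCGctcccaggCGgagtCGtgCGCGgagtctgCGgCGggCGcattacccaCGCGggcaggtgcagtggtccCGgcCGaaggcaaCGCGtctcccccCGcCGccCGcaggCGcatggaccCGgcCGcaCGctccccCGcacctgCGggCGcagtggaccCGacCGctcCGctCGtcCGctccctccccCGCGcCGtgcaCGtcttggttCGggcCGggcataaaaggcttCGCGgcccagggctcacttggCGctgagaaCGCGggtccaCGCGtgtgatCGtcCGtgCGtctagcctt
TXNRD1: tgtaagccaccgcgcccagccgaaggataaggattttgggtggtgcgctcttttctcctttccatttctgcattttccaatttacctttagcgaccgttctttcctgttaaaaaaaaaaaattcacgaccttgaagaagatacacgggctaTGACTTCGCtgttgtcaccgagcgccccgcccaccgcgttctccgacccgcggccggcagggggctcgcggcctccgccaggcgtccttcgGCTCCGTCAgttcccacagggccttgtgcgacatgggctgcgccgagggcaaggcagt
Motifs were searched on both strands of the 11 windows of the 7 genes, and no match overlapped another. The E-box CACGTG, a sequence bound by MYC and related factors, was in the windows of *PRDX3* (157 bases before the start site) and *PRDX4* (83 bases before), and in 7.26% of all 35116 windows. The core TGACNNNGC, a sequence bound by NRF2 with its small MAF partners, was in both *TXNRD1* windows and in 13.3% of all windows. The E2F motif TTTCCCGC and the FOXO motif GTAAACA were found in none of the members' windows, and in 1.63% and 3.42% of all windows. The *PRDX2* window held 46 CG pairs against a median of 14, more than 97.1% of all windows held.

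Expression was given as 1 deposited level per group, scaled within each pair of groups and not divided by gene length. The spread between samples and the depth of each library are therefore unknown. After knockdown *CCND3* itself stood at 24.2% (NALM-6), 20.7% (RS4;11) and 31.1% (BV-173) of the scrambled control, and after palbociclib at 76.0% to 81.8% of the DMSO control. The defining B-cell precursor genes were expressed in every group (10 to 12 of 12 at a level of 100 or more), the highest T cell or erythroid marker was at 7.28, and at most 2 of 5 myeloid and 1 of 5 stromal or epithelial markers reached 100. A gene's log2 ratio is the level of the treated group over that of its own control on the log2 scale, and a gene is counted as higher or lower when the levels differ at least 1.5-fold. To set groups of different tables side by side, a level was divided by the summed level of its group and multiplied by 1000000, which is called the scaled level here. With no replicate values, the difference in scaled level between the scrambled and the DMSO control of a line is given as the nearest available measure of how far 2 untreated groups lie apart. Among genes at 100 or more, 90% of these differences were within 0.60 (NALM-6), 0.44 (RS4;11) and 0.49 (BV-173) on the log2 scale. The 2 controls of a line also differ in transduction, sorting and day, so this is not a replicate error. Wherever a knockdown group is set against a DMSO control, both are on the scaled level, so the scale changes together with the control.

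*PRDX3*, the mitochondrial peroxiredoxin, was lower after *CCND3* knockdown in all 3 lines. In NALM-6 its level was 4432 with the scrambled shRNA and 1306 with the *CCND3* shRNA, a log2 ratio of -1.76. It went from 3746 to 1357 in RS4;11 (log2 ratio -1.46) and from 5738 to 3303 in BV-173 (-0.80). The 3 knockdown groups thus held 29.5%, 36.2% and 57.6% of their controls, and no knockdown level reached the lowest control level of the 6 control groups. Only 14 other genes of 15409 in NALM-6 had a lower log2 ratio, and *PRDX3* was in the lowest 1.82% of genes in RS4;11 and the lowest 1.52% in BV-173. In these bulk samples a lower level can mean fewer cells with the mRNA or less mRNA in each cell, and these cannot be told apart.

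Palbociclib gave smaller differences. *PRDX3* was 4519 with DMSO and 2732 with palbociclib in NALM-6 (log2 ratio -0.73), and 5165 and 3761 in RS4;11 (-0.46). BV-173 had 4658 and 4718 (0.02), so that the treated group stood level with its control. The NALM-6 ratio was past 1.5-fold, and those of the other lines were not. For comparison, the scrambled and DMSO controls differed by 0.06 in NALM-6, by -0.41 in RS4;11 and by 0.30 for BV-173, so the RS4;11 palbociclib difference was about as large as the one between its controls. After palbociclib 11.3% (NALM-6), 19.5% (RS4;11) and 48.3% (BV-173) of all genes had a lower ratio than *PRDX3*. Within a line, the *PRDX3* knockdown ratio was below its palbociclib ratio by 1.04 (NALM-6), 1.01 (RS4;11) and 0.82 (BV-173) on the log2 scale, which is 1.76-fold to 2.05-fold. Of the genes listed for both treatments, 8.37%, 3.66% and 7.68% had a still lower difference, so this gap was less extreme than the knockdown ratio itself.

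**Figure D1:**
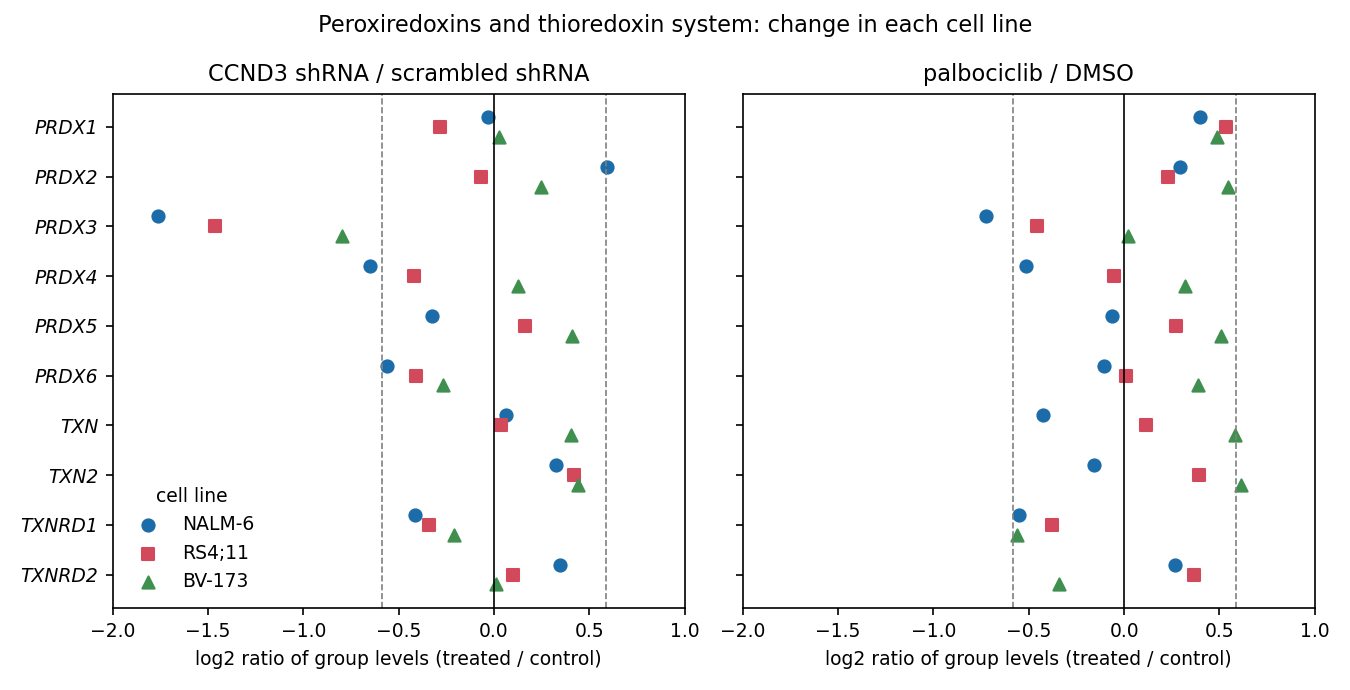
Log2 ratio of the treated over the control group level (horizontal axis) for the 10 genes (vertical axis), after *CCND3* knockdown and after palbociclib, with 1 point per cell line and no error bars because the tables hold 1 value per group. *PRDX3* has the lowest log2 ratio in all 3 lines after knockdown (-1.76, -1.46 and -0.80), and *TXNRD1* is below 0 in all 6 comparisons.

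Against its 5 paralogs, *PRDX3* had the lowest log2 ratio of the 6 peroxiredoxins in each of the 6 comparisons. After knockdown it was below the median paralog by 1.44 (NALM-6), 1.18 (RS4;11) and 0.92 (BV-173), and below the lowest paralog by 1.11 (*PRDX4*), 1.04 (*PRDX4*) and 0.53 (*PRDX6*). After palbociclib the distance to the median paralog was 0.66, 0.69 and 0.47, and that to the lowest paralog, *PRDX4* in each line, was 0.21, 0.41 and 0.30. In BV-173 after palbociclib the distance came from the paralogs, which were at log2 ratios of 0.32 to 0.54 while *PRDX3* was at 0.02. The authors' counting program, RSEM, divides reads among similar transcripts, so that the values of closely related peroxiredoxins carry an uncertainty of unknown size.

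Counted at 1.5-fold, few of the other genes moved as far. After knockdown 2 of the 10 genes were lower in NALM-6 (*PRDX3* and *PRDX4*) and 1 was higher (*PRDX2*, at a level near the floor), where 8.47% of all genes listed were lower and 7.82% higher. In RS4;11 only *PRDX3* was lower and none higher (9.72% and 9.73% of all genes), and in BV-173 again only *PRDX3* was lower and none higher (4.78% and 3.32%). After palbociclib *PRDX3* was lower in NALM-6 and no gene higher (14.9% and 21.4% of all genes), none passed in RS4;11 (15% and 16.7%), and in BV-173 none was lower and *TXN2* was higher (11.9% and 13.6%). In all, 4 of 30 pairs of gene and line were lower after knockdown and 1 was higher, where 7.72% and 7.04% of the pairs over all genes were. After palbociclib 1 of 30 was lower and 1 higher, where 14% and 17.3% over all genes were. The median log2 ratio of the other 9 genes was -0.03, -0.07 and 0.12 after knockdown, with the lines in the order above, beside 0.01, 0.01 and -0.01 for all genes listed. After palbociclib it was -0.10, 0.23 and 0.49, beside 0.06, 0.01 and 0.04.

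A second count used the 90% limits between the controls, for genes whose mean level was at least 100. The limits came from scaled levels, while the ratios set against them came from the deposited levels. After knockdown, *PRDX3* and *PRDX4* were beyond the limit in NALM-6 (16% of all such genes were), and *PRDX3* alone in RS4;11 (29.2%) and in BV-173 (13.3%). After palbociclib *PRDX3* was beyond it in NALM-6 (31.4%), *PRDX1* and *PRDX3* in RS4;11 (41.2%), and *PRDX2*, *PRDX5*, *TXN*, *TXN2* and *TXNRD1* in BV-173 (33.1%). All other ratios of members at 100 or more lay within these limits. With the ratios also taken from scaled levels, 2 of these lists change. *PRDX4* (62.1 and 45.4) and *PRDX6* (155.3 and 114.4) in RS4;11 after knockdown then pass the limit. *PRDX2* (82.4 and 115.0) and *PRDX5* (70.5 and 95.9) in BV-173 after palbociclib then lie within it. The shares over all genes were not computed that way. *PRDX2* in NALM-6, below 100, was not counted.

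**Figure D2:**
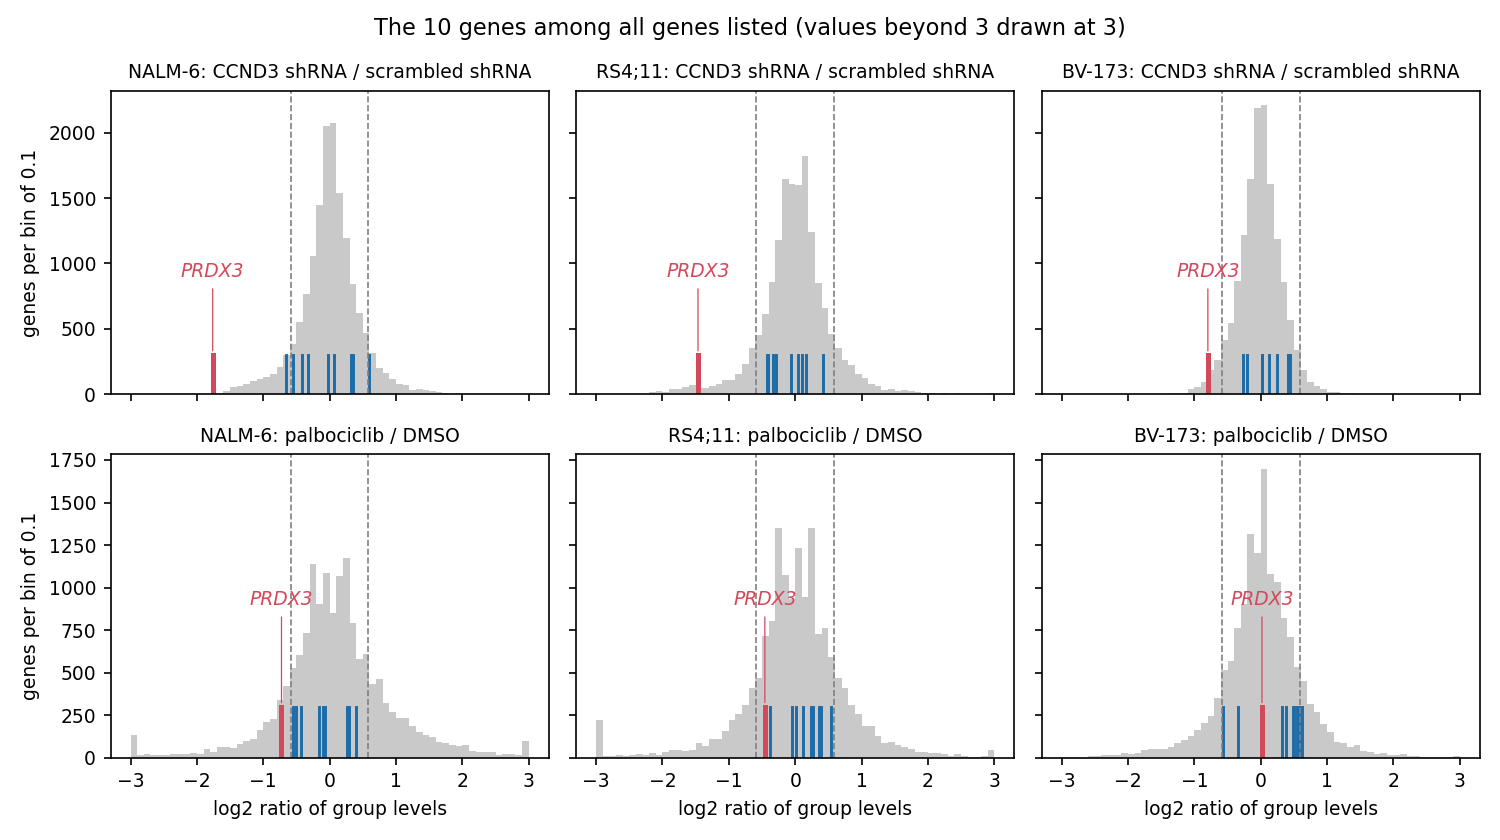
Distribution of the log2 ratio over all genes listed (grey, number of genes) in each of the 6 comparisons, with the 10 genes drawn as marks and values beyond 3 drawn at 3. *PRDX3* lies in the lower tail of the 3 knockdown panels, in NALM-6 with 14 genes below it, while most of the other genes lie in the bulk of the distribution.

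*PRDX1*, the most abundant peroxiredoxin of the cytosol, stood within 1.22-fold of its control after knockdown and above its control after palbociclib in every line, by less than 1.5-fold. With the scrambled and the *CCND3* shRNA its level was 20640 and 20183 in NALM-6, 44992 and 36928 in RS4;11, and 15624 and 15883 in BV-173. With DMSO and palbociclib it was 23600 and 31080 in NALM-6, 52350 and 75809 in RS4;11, and 13320 and 18678 in BV-173. The log2 ratios after palbociclib were thus 0.40, 0.53 and 0.49 (mean 0.47 ± 0.07, SD over the 3 lines), against -0.03, -0.28 and 0.02 after knockdown. The palbociclib ratio exceeded the knockdown ratio in all 3 lines, by 0.43 to 0.82. The scrambled and DMSO controls of a line differed by up to 0.22 for this gene.

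*PRDX2*, a cytosolic peroxiredoxin best known from red blood cells, was close to absent in NALM-6 and well expressed in both other lines. NALM-6 had a level of 1.79 with scrambled shRNA, 2.70 with *CCND3* shRNA, 1.18 with DMSO and 1.45 with palbociclib. In RS4;11 these 4 groups had 2426, 2314, 2962 and 3476, and in BV-173 they had 1661, 1973, 1588 and 2316. The NALM-6 knockdown ratio of 0.60 is thus a difference of under 1 unit on the scale of the levels. In the 2 lines that express the gene, the log2 ratio was -0.07 and 0.25 after knockdown and 0.23 and 0.54 after palbociclib.

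The difference between lines was much larger than any treatment difference. On the scaled level, the lowest *PRDX2* control of the other lines was 844 times the higher NALM-6 control. Only 56 of 13307 genes listed in all tables (0.421%) were at least 100-fold lower in both NALM-6 controls than in all controls of the other lines, and *PRDX2* was the only one of the 10 genes among them. The neighbouring genes on chromosome 19 did not share this. *HOOK2*, *JUNB* and *RNASEH2A*, the nearest listed genes on either side, had scaled levels of 10.8 to 92.4 in the NALM-6 controls, and their lowest level in the other lines was 1.03, 0.51 and 0.44 times the higher NALM-6 control. *RTBDN* and *MAST1*, farther along, were higher in NALM-6 than in the other lines. The window shown above with its 46 CG pairs is that of this gene. No methylation was measured.

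**Figure D3:**
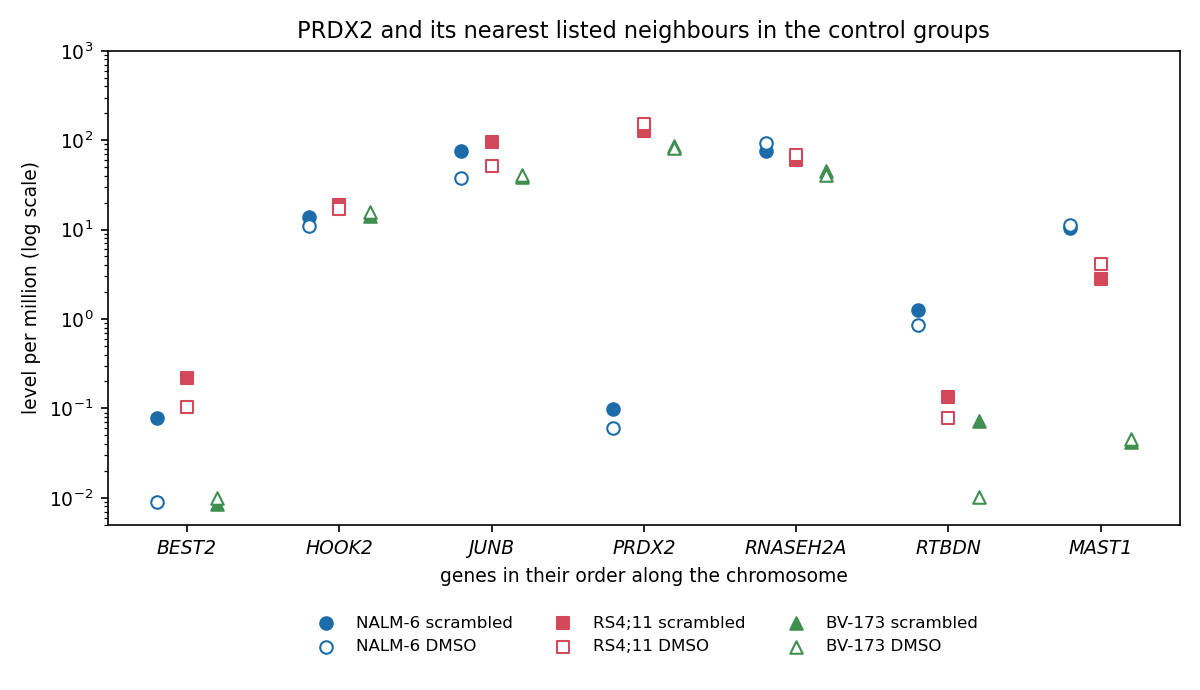
Scaled level (vertical axis, per 1000000, log scale) of *PRDX2* and its nearest listed neighbours in their order along chromosome 19, in the scrambled (filled) and DMSO (open) controls of the 3 lines, 1 value per group. *PRDX2* lies at 0.0607 to 0.0976 in NALM-6 and at 82.4 to 149.8 in the other lines, while *HOOK2*, *JUNB* and *RNASEH2A* are expressed in all 3.

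*PRDX4*, the peroxiredoxin of the endoplasmic reticulum, was lower after knockdown in NALM-6 and stood nearer to its control elsewhere. In NALM-6 its level was 946 with scrambled and 602 with *CCND3* shRNA (log2 ratio -0.65). RS4;11 had 1183 and 884 (-0.42), and BV-173 had 1569 and 1710 (0.12). After palbociclib the log2 ratio was -0.51 (NALM-6), -0.05 (RS4;11) and 0.32 (BV-173), so the lines kept the same order under both treatments. In BV-173 its 2 controls differed by 0.54, more than either treated group differed from its own control. Set against the DMSO control, the knockdown group was at -0.40 in NALM-6, within 1.5-fold, and at 0.56 in BV-173.

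*PRDX5*, which is found in mitochondria, peroxisomes and cytosol, followed the same order of lines. Its levels with scrambled and *CCND3* shRNA were 775 and 620 in NALM-6, 1222 and 1368 in RS4;11, and 1426 and 1892 in BV-173, with log2 ratios of -0.32, 0.16 and 0.41. After palbociclib the ratios were -0.06, 0.27 and 0.51. The other mitochondrial peroxiredoxin therefore did not share the low level of *PRDX3*. With both levels per kilobase of transcript, *PRDX3* was 3.07 times *PRDX5* in NALM-6 with scrambled shRNA and 1.13 times with *CCND3* shRNA. In RS4;11 this ratio went from 1.64 to 0.53 and in BV-173 from 2.16 to 0.94. After palbociclib it went from 3.63 to 2.29, from 1.82 to 1.098 and from 1.84 to 1.31.

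*PRDX6* was below its control after knockdown in all 3 lines, by less than 1.5-fold. The levels with scrambled and *CCND3* shRNA were 3124 and 2119 in NALM-6, 2957 and 2226 in RS4;11, and 4047 and 3367 in BV-173, and the mean log2 ratio was -0.41 ± 0.15 (SD over the 3 lines). Set against the DMSO control of the line on the scaled level, the knockdown groups were at -0.59, -0.71 and -0.39. This is past 1.5-fold in RS4;11 and narrowly so in NALM-6 (-0.587, with the limit at 0.585). After palbociclib the ratio was -0.10 (NALM-6), 0.01 (RS4;11) and 0.39 (BV-173). The knockdown ratio was below the palbociclib ratio by 0.42 to 0.65 in each line. *PRDX1*, *PRDX3*, *PRDX4* and *PRDX5* also had the lower ratio after knockdown in all 3 lines, *PRDX2* in RS4;11 and BV-173 only.

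Per kilobase of transcript, *PRDX1* made up most of the peroxiredoxin mRNA in every group. Its share of the 6 genes ran from 57.4% in BV-173 with DMSO to 86.6% in RS4;11 with palbociclib. *PRDX3* held 10.3% in NALM-6 with scrambled shRNA and 3.51% with *CCND3* shRNA, 4.39% and 1.96% in RS4;11, and 13.6% and 8.04% in BV-173. After palbociclib its share went from 9.49% to 4.81% in NALM-6, from 5.13% to 2.74% in RS4;11 and from 12.8% to 9.68% in BV-173. In BV-173, where the *PRDX3* level itself was the same with palbociclib as with DMSO, the smaller share reflects the higher levels of the other 5 genes. The summed scaled level of the peroxiredoxins per kilobase was lower than the control after knockdown in each line (1432 to 1261, 2736 to 2170 and 1330 to 1208) and higher after palbociclib (1494 to 1948, 3105 to 4204 and 1152 to 1478). *PRDX3* made up most of the difference after knockdown in NALM-6, with 148 against 44.2 on this scale where *PRDX1* had 1080 against 1073, and in BV-173, with 181 against 97.1 where *PRDX1* had 773 against 733. In RS4;11 after knockdown, and in each line after palbociclib, *PRDX1* made up most of it.

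**Figure D4:**
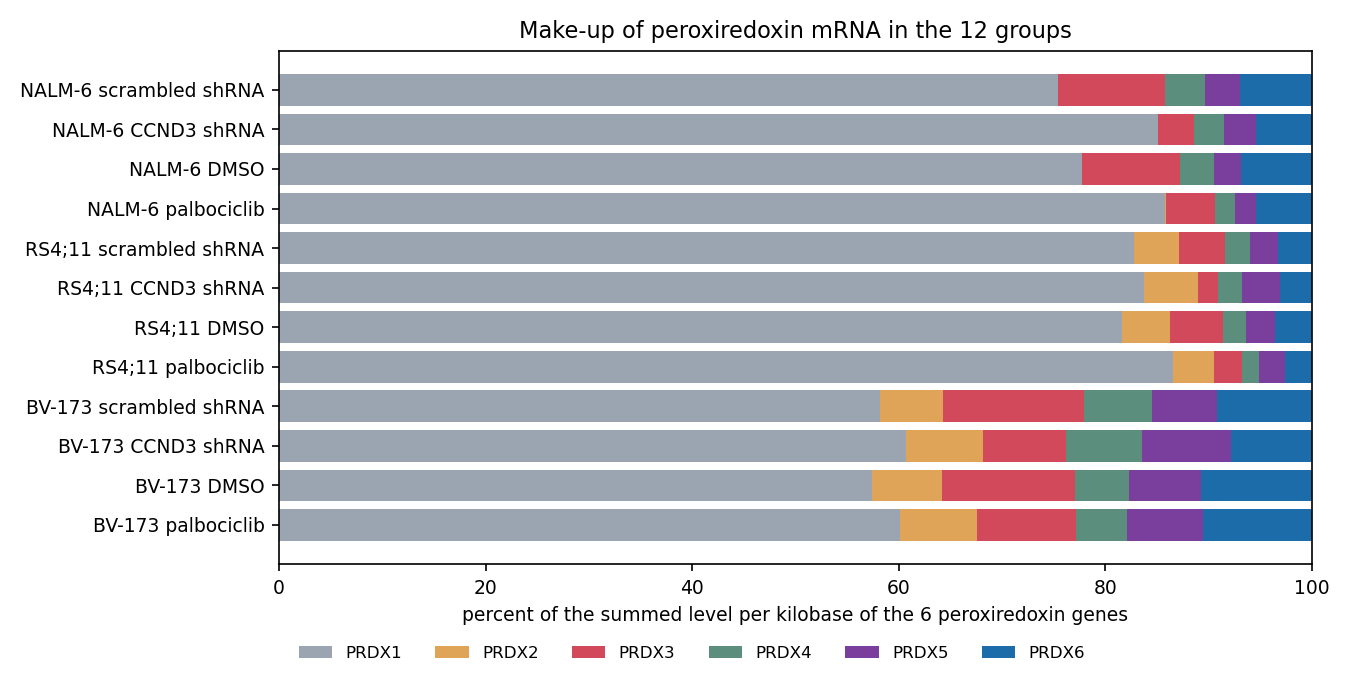
Share of each peroxiredoxin in the summed level of the 6 genes per kilobase of transcript (horizontal axis, percent) in the 12 groups (vertical axis), 1 value per group. *PRDX1* makes up 57.4% to 86.6%, and the *PRDX3* part is smaller in each treated group than in its own control, for example 3.51% against 10.3% in NALM-6 with *CCND3* and scrambled shRNA.

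The thioredoxins did not follow *PRDX3*. *TXN*, the thioredoxin of the cytosol, had 1749 with scrambled and 1827 with *CCND3* shRNA in NALM-6, 2295 and 2356 in RS4;11, and 1413 and 1871 in BV-173. These are log2 ratios of 0.06, 0.04 and 0.40. After palbociclib the lines went different ways, with 2295 to 1708 in NALM-6 (-0.43), 2961 to 3209 in RS4;11 (0.12) and 1066 to 1596 in BV-173 (0.58).

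*TXN2*, the mitochondrial thioredoxin that reduces *PRDX3*, was above its control after knockdown in every line, by less than 1.5-fold. Its levels were 1327 and 1660 in NALM-6, 1301 and 1740 in RS4;11, and 1776 and 2415 in BV-173 (mean log2 ratio 0.40 ± 0.06, SD over the 3 lines). The 2 mitochondrial partners thus stood on opposite sides of their controls. The *PRDX3* level per kilobase was 2.74, 2.36 and 2.65 times that of *TXN2* with scrambled shRNA, and 0.64, 0.64 and 1.12 times with *CCND3* shRNA. After palbociclib the *TXN2* log2 ratio was -0.16 (NALM-6), 0.40 (RS4;11) and 0.62 (BV-173). The 2 NALM-6 controls differed by 0.40 for this gene, and set against the DMSO control of NALM-6 the knockdown group was at -0.05.

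*TXNRD1*, the reductase of the cytosol, was below its control in all 6 comparisons, each by less than 1.5-fold. In NALM-6 its level was 2892 with scrambled and 2167 with *CCND3* shRNA, and 3068 with DMSO and 2091 with palbociclib. RS4;11 had 3898 and 3083, then 4339 and 3343, and BV-173 had 8672 and 7501, then 6641 and 4500. The log2 ratios were -0.42, -0.34 and -0.21 after knockdown (mean -0.32 ± 0.10, SD over the 3 lines) and -0.55, -0.38 and -0.56 after palbociclib (mean -0.50 ± 0.10). It was the only one of the 10 genes whose knockdown ratio was above its palbociclib ratio in all 3 lines, by 0.04 to 0.35. Set against the DMSO control of BV-173 in place of the scrambled one, the knockdown group of that line was at 0.07.

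*TXNRD2*, the mitochondrial reductase, had the lowest level per kilobase of the 10 genes in RS4;11 and BV-173. Its levels after knockdown were 260 and 331 in NALM-6, 519 and 557 in RS4;11, and 523 and 527 in BV-173. After palbociclib they were 268 and 322, 557 and 717, and 620 and 490, so that BV-173 with palbociclib was below its control (-0.34) while the other lines were above (0.27 and 0.36). None of these differences reached 1.5-fold.

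Some genes kept an order of the lines whatever the treatment. The scaled level of *PRDX1* ran from 1898 to 3800 over the 4 groups of RS4;11, from 1120 to 1745 in NALM-6 and from 691 to 928 in BV-173, with no overlap. *TXN* had the same order (120.5 to 160.9, 95.6 to 118.0 and 55.3 to 90.1), again with none. *TXNRD1* had another order, with 223 to 448 in BV-173, 158 to 219 in RS4;11 and 117 to 158 in NALM-6, the latter pair separated by less than 1 unit. NALM-6 was lowest for *PRDX5* (34.3 to 42.3) and *TXNRD2* (13.8 to 18.3), for which RS4;11 and BV-173 overlapped. For *PRDX3*, *PRDX4*, *PRDX6* and *TXN2* the ranges of neighbouring lines overlapped. *PRDX3* in the 6 control groups ran from 196.7 to 296.5 on the scaled level. These are levels from tables that were normalised separately, and the 4 groups of a line are not replicates.

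**Figure D5:**
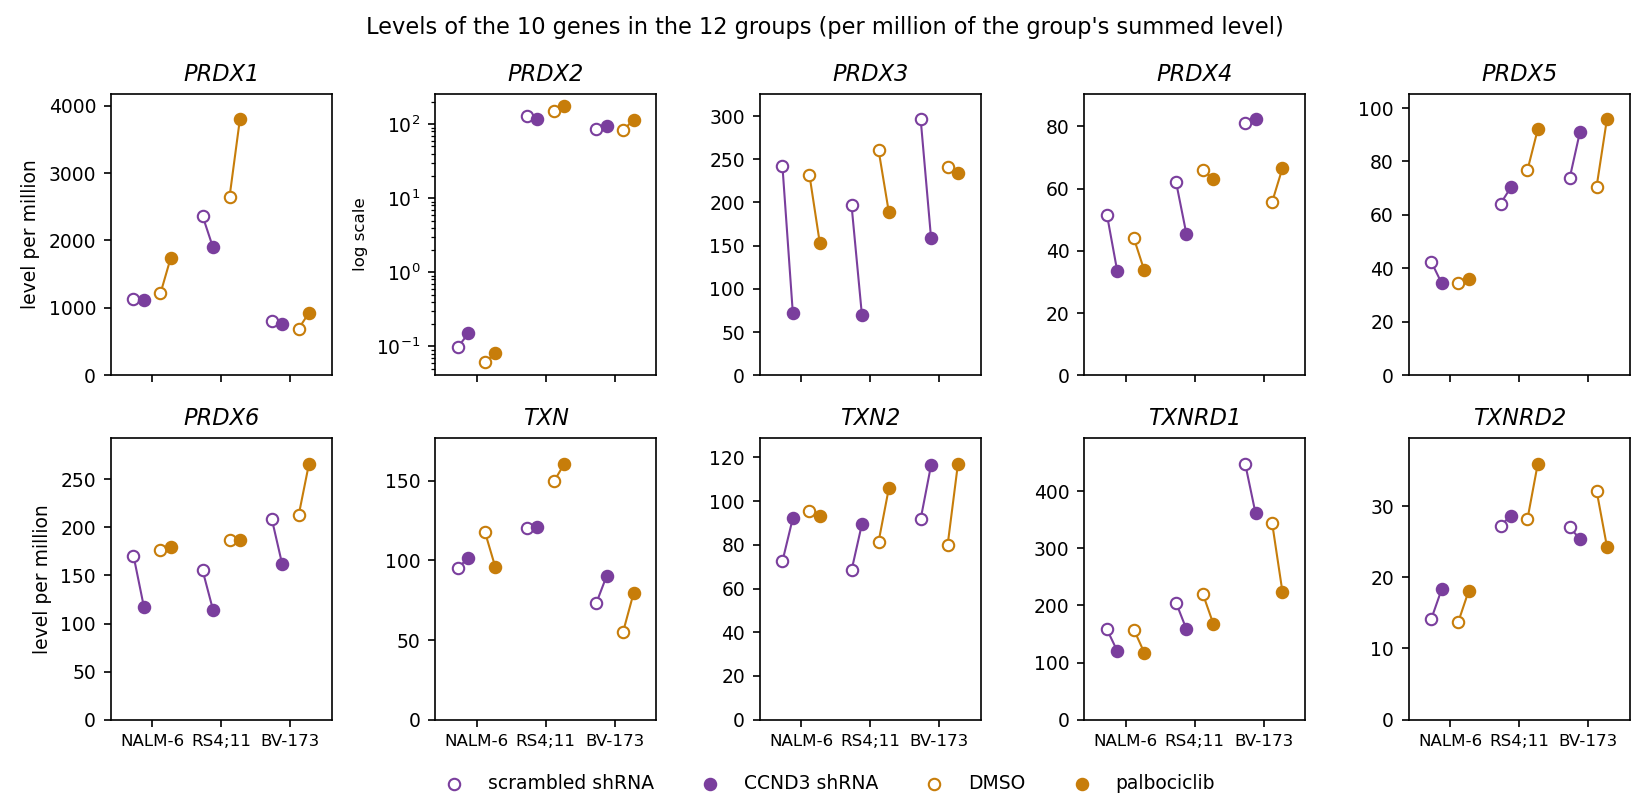
Scaled level (vertical axis of each panel, per 1000000, 1 panel per gene) in the 12 groups, 1 value per group and no error bars. *PRDX3* lies at 196.7 to 296.5 in the controls and at 69.8 to 159.1 with *CCND3* shRNA, and *PRDX2* is near 0 in the 4 NALM-6 groups.

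Among 10074 genes listed in all tables and at 100 or more on average, the 5 whose 6 log2 ratios lay nearest to those of *PRDX3* were *SEPT7*, a septin of the cytoskeleton (Euclidean distance 0.62), *ICMT*, which methylates prenylated proteins (0.81), *GOLT1B*, a Golgi transport protein (0.84), *CBFB*, the partner of RUNX factors (0.86), and *IGSF3*, a membrane protein (0.89). Their ratios after knockdown in NALM-6 ranged from -1.56 to -1.21. None of the other 9 genes was close, with *PRDX4* at 1.86 (rank 493), *PRDX6* at 1.89 (rank 559) and *TXNRD1* at 1.95 (rank 730) the nearest and *TXN2* at 3.29 (rank 8002) the farthest. The measure rests on 6 ratios in which *PRDX3* was picked for its values. By Pearson's correlation over the same 6 ratios, which ignores size, 5 different genes came first, and *PRDX6* was at 0.97 (rank 20).

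The other genes of the pathway were read from 6 lists of 56 genes in all. After knockdown 15 of 166 pairs of gene and line (9.04%) were at least 1.5-fold lower and 12 (7.23%) higher, where 7.72% of the pairs over all genes listed were lower and 7.04% higher. After palbociclib 30 of 165 (18.2%) were lower and 19 (11.5%) higher, where 14% and 17.3% over all genes were. The counts of each list below are to be read beside these shares over all genes. They are described in turn.

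Among the 11 genes that control or repair the system, knockdown gave 1 lower and 7 higher of 31 pairs, and palbociclib 3 lower and 10 higher, so that 22.6% and 32.3% were higher where 7.04% and 17.3% of all pairs were. The lower pair after knockdown, *MSRB3* in BV-173 (levels 5.97 and 3.53), lay near the floor. So did 1 higher pair after each treatment, *MSRB3* in NALM-6 after knockdown (3.25 and 5.31) and *TXNRD3* in NALM-6 after palbociclib (4.47 and 8.69). The median log2 ratio of this list, with the lines in the order above, was 0.31, -0.08 and 0.23 after knockdown and 0.21, 0.24 and 0.45 after palbociclib. *TXNIP*, which binds and inhibits thioredoxin, was at 1753 and 2508 in NALM-6, 1064 and 2293 in RS4;11 and 978 and 1105 in BV-173 with scrambled and *CCND3* shRNA. With DMSO and palbociclib it was at 1037 and 2001, 862 and 1839, and 1510 and 1607. It was thus past 1.5-fold in RS4;11 after both treatments and in NALM-6 after palbociclib, and near its control in BV-173 (log2 ratios 0.18 and 0.09). *SESN3*, a sestrin, was higher than its own control in all 6 comparisons. Its log2 ratios were 0.97 to 1.77 after knockdown and 1.64 to 2.36 after palbociclib. The lowest, BV-173 after knockdown, came from low levels (26.2 with scrambled and 51.2 with *CCND3* shRNA). The DMSO control of that line was at 94.0, above the knockdown group, so the direction there depends on the control. *SESN2*, another sestrin, was lower in all 3 lines after palbociclib (-1.15, -1.35 and -2.07), and within 1.5-fold after knockdown. *SRXN1*, the sulfiredoxin that restores overoxidised peroxiredoxins, was expressed in RS4;11 at 382 with scrambled and 292 with *CCND3* shRNA, and at 433 and 354 with DMSO and palbociclib. Its 4 levels in NALM-6 were all below 1, and it was not listed in either comparison of BV-173.

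Ribonucleotide reductase makes deoxynucleotides and takes its electrons from thioredoxin or glutaredoxin. *RRM1* and *RRM2*, its large and small subunits, were lower after palbociclib in all 3 lines. *RRM2* went from 7511 to 1572 in NALM-6, from 6091 to 98.9 in RS4;11 and from 3830 to 1361 in BV-173, and *RRM1* had log2 ratios of -2.63, -3.32 and -1.66. After knockdown *RRM2* had -1.10, -1.92 and -0.51 and *RRM1* -1.03, -1.65 and -0.52, so BV-173 stayed within 1.5-fold. Both genes thus had the lower ratio after palbociclib, unlike *PRDX3*. *RRM2B*, a second small subunit, was within 1.5-fold throughout. The list thus had 4 of 9 pairs lower after knockdown and 6 of 9 after palbociclib, and none higher.

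Among 7 other enzymes that remove peroxide or superoxide, 4 of 21 pairs (19.05%) were higher after each treatment and none lower, which is above the 7.04% of all pairs after knockdown and near the 17.3% after palbociclib. The median log2 ratio was 0.38, -0.06 and 0.27, then 0.29, -0.03 and 0.14. Catalase (*CAT*) was above its control in all 6 comparisons, with log2 ratios of 0.73, 0.51 and 0.42 after knockdown and 0.88, 0.60 and 0.60 after palbociclib. Its level in NALM-6, for example, was 2914 with scrambled and 4836 with *CCND3* shRNA. *GPX1*, a glutathione peroxidase, was also above its control in each, by 0.29 to 0.89. The mitochondrial superoxide dismutase *SOD2*, which makes the hydrogen peroxide that *PRDX3* removes, was above its control in NALM-6 (0.65 after knockdown and 0.51 after palbociclib) and below it in RS4;11 (-0.23 and -0.50). In BV-173 it was at 0.27 and -0.09.

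The mitochondrial NADPH suppliers (7 genes) had 3 lower and 0 higher of 21 pairs after knockdown, and 6 lower and 3 higher after palbociclib (14.3% and 28.6% lower, against 7.72% and 14% of all pairs). The median log2 ratio was 0.00, -0.11 and -0.05 after knockdown and -0.10, -0.46 and -0.32 after palbociclib. *MTHFD2*, a folate enzyme, was lower after palbociclib in all 3 lines (-1.52, -1.86 and -1.72), and after knockdown in NALM-6 (-0.67) and RS4;11 (-1.02) but not in BV-173 (-0.04). *NNT*, the transhydrogenase that feeds the mitochondrial thioredoxin system, was below its control in all 6 comparisons (-0.10 to -0.66) and past 1.5-fold in BV-173 after palbociclib only. Of the NRF2 list (8 genes), 4 of 24 pairs were lower and 1 higher after knockdown, and 9 of 23 lower and 1 higher after palbociclib (16.7% and 39.1% lower, against the same shares). The median log2 ratio was -0.19, -0.16 and 0.01, then -0.52, -0.40 and -0.38. *SLC7A11*, the cystine carrier, was lower in all 3 lines after palbociclib (-2.05, -4.55 and -1.93), and after knockdown in NALM-6 (-1.16) and RS4;11 (-1.27) but not in BV-173 (-0.10). *GCLM*, the modifier subunit of glutathione synthesis, was below its control in all 6 comparisons like *TXNRD1*, by 0.31 to 0.97. The 20 thioredoxin-like proteins and glutaredoxins had 3 lower and 0 higher of 60 pairs after knockdown, and 6 lower and 1 higher after palbociclib (5% and 10% lower, both under the share of all pairs). The median log2 ratio was -0.11, -0.17 and 0.06, then -0.20, -0.02 and -0.02. *GLRX*, the cytosolic glutaredoxin, was within 0.04 of its control after knockdown on the log2 scale and between -0.29 and 0.48 after palbociclib.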

How the data were processed

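RNA from 34 cultures of 3 B-ALL cell lines was sequenced in 12 groups defined by line and treatment as labelled. Per the labels and the methods of the study, reads were filtered (SOAPnuke), aligned to hg38 (Bowtie2) and turned into gene levels (RSEM) by the authors, who then ran DESeq2 on pairs of groups. Each of the 6 deposited tables holds a signal for each of the 2 groups (1 level per group, scaled within the pair and pooled over its samples), the gene length, and the authors' own log2 fold change, p-value, adjusted p and call, which were not used. No level was 0. The largest log2 ratio of genes with a mean level under 1 was 0.45 to 1.49 in a table, against 2.37 to 7.39 at 100 or more. A mean level under 1 itself limits the ratio, and the sets differ in size. Whether ratios near the floor are compressed was therefore not tested, and they are to be read with care.

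Log2 ratios were computed from the 2 levels of a table, with no pseudocount. Groups of different tables were set side by side after division by the summed level of the group (scaled to 1000000), and different genes per kilobase. Since each group has 1 value, no test, SD over samples or interval was possible, and no p-value is given. An SD over the 3 lines is the spread between lines. Genes named besides the 10 were *CCND3*, *TXNIP*, *SRXN1*, *RRM1*, *RRM2*, *SOD2*, *GLRX*, *NNT* and *CAT*, list genes past 1.5-fold the same way in all 3 lines of a treatment, and the 5 genes nearest to *PRDX3*. *GPX1*, *GCLM*, *RRM2B*, *MSRB3*, *TXNRD3* and the neighbours of *PRDX2* were named after their values were seen. The members and lists were chosen with earlier results of these data known. Alternatives were other fold thresholds, centring, pseudocounts of 1 and 10, other scalings and measures of likeness, leaving out each line or paralog and, added after the data were seen, the DMSO control as the reference for knockdown and leaving out *PRDX2* in NALM-6. Positions and start-site windows are from RefSeq (GRCh38.p14), with no window at hand for *PRDX1*, *PRDX6* and *TXN2*. Analyses ran in Python 3.11.15 with pandas 2.3.3, numpy 2.4.6 and matplotlib 3.10.9, and the computations were tested on simulated tables. Immunoblots, flow cytometry and xenografts were not analysed here.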

Additional observations from a re-analysis of the deposited data

Results flagged for a closer look

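In 3 cases a gene had log2 ratios past 0.322 in opposite directions in 2 lines under the same treatment. Each group has 1 value, so none of these differences was tested. *PRDX5* after knockdown was at a log2 ratio of -0.323 in NALM-6 and 0.41 in BV-173, a difference of 0.73, while its scrambled and DMSO controls differed by 0.30 in NALM-6 and 0.06 in BV-173, and against the DMSO control the knockdown groups were at 0.00 and 0.37. *TXN* after palbociclib was at -0.43 in NALM-6 and 0.58 in BV-173, a difference of 1.01, and its controls differed by -0.30 and 0.40 in these lines. *TXNRD2* after palbociclib was at 0.36 in RS4;11 and -0.34 in BV-173, a difference of 0.71, with control differences of -0.05 and -0.25. *PRDX4* after palbociclib came just short of this limit, at -0.512 in NALM-6 and 0.321 in BV-173.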

How the results depend on the processing

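Of 449 values recomputed under alternatives, 385 stayed within the spread between lines or paralogs (counts within 1.5 times), 64 moved and none changed direction past the threshold. The means without 1 line were bound to stay within it, since the spread came from the same 3 lines. Values without 1 paralog were likewise judged by the spread of those same paralogs. The count of 385 is therefore not a measure of robustness. With a threshold of 0.322 on the log2 scale in place of 0.58 (1.5-fold), the pairs of member and line were 10 lower and 7 higher after knockdown and 8 lower and 10 higher after palbociclib, and those of the lists were 35 and 24, then 54 and 41. With a fold of 2 the members had 2 and 0 after knockdown (*PRDX3* in NALM-6 and RS4;11) and 0 and 0 after palbociclib, and the lists 7 and 4 after knockdown and 21 and 7 after palbociclib. The shares over all genes were not computed at these 2 thresholds. These counts therefore show only how the calls depend on the threshold, not how the genes stand beside all others. Centring each table on its median gave 2 members higher after palbociclib, and without *PRDX2* in NALM-6 none was higher after knockdown. Of the 5 genes nearest to *PRDX3*, 0 were named by Pearson's correlation and 3 at a mean level of at least 1000. Against the DMSO control of the line, on the scaled level, the *PRDX3* knockdown ratio was -1.68, -1.90 and -0.60 and 13 values of other genes moved. *PRDX4* in NALM-6 lost its 1.5-fold call (-0.40), while *PRDX6* gained it in RS4;11 (-0.71) and narrowly in NALM-6 (-0.59). Several crossed 0, among them *TXN2* in NALM-6 (-0.05), *TXN* in NALM-6 and RS4;11 (-0.22 and -0.31), *TXNRD1* in BV-173 (0.07) and *TXNRD2* in BV-173 (-0.34). On the scaled level *TXNRD2* in BV-173 was already below its scrambled control (25.4 against 27.0). Without 1 line, the mean *PRDX3* ratio over the others was -1.61 to -1.13 after knockdown and -0.59 to -0.22 after palbociclib. A pseudocount of 10 brought the *PRDX2* ratios in NALM-6 to 0.11 and 0.03. No paired analysis was possible because the tables hold 1 value per group. For the same reason no sample could be left out, depth and sample spread are unknown, and small ratios may lie within the spread between samples.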
